A study of Mus musculus with 6 samples.

Results

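A set of 10 genes of lipid storage and use was followed across mammary basal cells and mammary macrophages of the mouse: Plin4, Pdk4, Adh1, Plin1, Plin2, Fabp4, Lpl, Angptl4, Adipoq and Pparg. They were picked by name, as every probe that the array design assigns to one of the 10 genes, which gave 11 probes (2 for Lpl) among 34964 genes. Plin4, Pdk4 and Adh1 were already known to be high in Dll1-high cells when the set was drawn up, so their difference between Dll1-high and Dll1-low cells is a description and carries no test. Of the 10 genes, 3 were at least 2-fold higher in Dll1-high cells, as were 0.0933% of all genes; 5 were above Dll1-low at all, as were 43.8% of all genes, and 5 were below. Their median difference was 0.16, beside -0.03 over all genes. Plin4, Pdk4 and Adh1 are part of that median, so nothing is read from it.

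The study used 6 two-colour arrays, each with a Cy5-labelled sample set against a Cy3-labelled common reference, RNA from a mix of 11 mouse cell lines. The Dll1-high sample (1 array) was the mCherry+ fraction, and the Dll1-low sample (1 array) the mCherry- fraction, of CD24+ CD29hi mammary cells from female virgin Dll1-mCherry reporter mice on C57/B6; the labels give the cell type as MaSC. The other 4 arrays held macrophages, sorted on the surface antigen encoded by Adgre1, from mammary glands of virgin females, 2 from Dll1-conditional KO mice (strain C57/B6:cKO-Dll1) and 2 from their wild type (WT) littermates (C57/B6). Which cells lose Dll1 in the KO, the driver of the deletion, the age of the animals and the number of animals behind each RNA are not given in the sources used here, so p-values measure only the spread between these samples, which may be technical. The value given for a gene on an array is its log2 ratio, sample over reference, and a difference is the log2 ratio of one array or group minus that of another.

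Lipid droplets are coated by perilipins, which govern access of lipases to the stored triglyceride. Peroxisome proliferator-activated receptors (PPARs) are nuclear receptors that bind DNA with RXR partners when fatty acids or their derivatives are present, and they switch on genes for fat uptake, droplet coats and fatty acid oxidation. The mammary epithelium of a virgin mouse is a ductal tree embedded in a pad of fat. Adipocytes, which hold many of the same transcripts at high levels, are thus among the cells around it.

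The probes that read the 3 genes high in Dll1-high cells and Adipoq, the adipocyte hormone that serves below as a sign of fat cell RNA, are shown by the leading 30 of their 60 bases, 5′ to 3′ on the strand given, with coordinates on mm9 per the file headers. Each of these sequences was carried by 1 probe of the array.
Plin4 probe, chr17:56240055-56240114, minus strand: cagcctgtgggtatgagacctgccctgaat
Pdk4 probe, chr6:5433441-5433500, minus strand: tatgaacccatgggagactttaaactcttg
Adh1 probe, chr3:137952821-137952880, plus strand: gtttccgttggacccgttaattacccatgt
Adipoq probe, chr16:23157576-23157635, plus strand: tgtatggggatggggaccacaatggactct

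Promoter sequence was available from RefSeq (GRCm38.p6) for 7 of the 10 genes, with 9 promoters in all since Pparg had 3; the 250 bases before the start were searched. The promoters of these 3 genes and of Adipoq are shown so that genes that were high together in Dll1-high cells can be set beside one that was not. Capitals mark AGGTCA, the half-site of PPAR and RXR binding, and CCAAT, the box bound by NF-Y, on either strand.
Plin4 promoter, chr17:56109783-56110032, minus strand: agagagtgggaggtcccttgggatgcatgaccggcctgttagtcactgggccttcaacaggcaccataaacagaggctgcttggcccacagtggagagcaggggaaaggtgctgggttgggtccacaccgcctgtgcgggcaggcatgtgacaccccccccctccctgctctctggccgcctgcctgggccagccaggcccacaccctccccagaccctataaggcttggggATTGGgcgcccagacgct
Pdk4 promoter, chr6:5496279-5496528, minus strand: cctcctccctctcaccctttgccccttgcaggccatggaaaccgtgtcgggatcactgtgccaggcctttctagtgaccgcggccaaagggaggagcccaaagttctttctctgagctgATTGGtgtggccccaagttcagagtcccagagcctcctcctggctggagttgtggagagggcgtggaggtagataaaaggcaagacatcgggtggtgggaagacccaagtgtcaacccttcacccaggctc
Adh1 promoter, chr3:138277335-138277584, plus strand: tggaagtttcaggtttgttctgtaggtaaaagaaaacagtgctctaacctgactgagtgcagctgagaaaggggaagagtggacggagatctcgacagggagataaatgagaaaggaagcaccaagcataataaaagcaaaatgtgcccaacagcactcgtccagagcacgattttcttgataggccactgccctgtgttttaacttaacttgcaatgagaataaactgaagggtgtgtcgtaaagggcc
Adipoq promoter, chr16:23146286-23146535, plus strand: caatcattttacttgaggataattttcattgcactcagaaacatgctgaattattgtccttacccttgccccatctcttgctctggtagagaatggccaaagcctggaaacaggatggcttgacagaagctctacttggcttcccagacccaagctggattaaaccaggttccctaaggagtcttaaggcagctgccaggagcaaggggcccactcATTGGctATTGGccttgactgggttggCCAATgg

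Searched on both strands, the AGGTCA half-site was in 3 of the 9 promoters, those of Plin2 and 2 of Pparg, against 14% of the 32851 mouse promoters of this length. CCAAT was in 6 of 9, those of Plin4, Pdk4, Plin2, Adipoq and 2 of Pparg, against 33.8% of all; the promoters of Adh1 and Plin1 held neither. A match here is a description of letters, and the absence of one says only that the letters are not in these 250 bases.

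The arrays differed in quality and cell content. The scanner software marked Cy5 as well above background at 86% of spots for Dll1-high and 88.1% for Dll1-low, and at 47.4% to 71.9% for the macrophages. The basal and macrophage samples lay on different slides, so the slide and the cell type cannot be told apart. The list medians of basal and macrophage markers went with the labelled cell types. The median log2 ratio of 10 basal genes was 4.52 in Dll1-high and 3.86 in Dll1-low cells, against 0.29 to 0.63 in macrophages. Not every basal gene did so: Trp63 read 0.47 in Dll1-high and 0.77 in Dll1-low cells, against 0.12 to 3.23 in macrophages. Mylk read 1.02 in Dll1-high and 1.08 in Dll1-low cells, against 0.20 to 1.67 in macrophages. The median of 12 macrophage genes was -0.66 in Dll1-high and -0.38 in Dll1-low cells, against 2.02 to 3.94 in macrophages. The median of 12 endothelial genes was 1.16 in Dll1-high and 1.48 in Dll1-low cells, against 1.76 to 3.02 in macrophages. On WT replicate 1 the endothelial median (3.02) was above the macrophage median (2.02). WT replicate 1 stood apart: its log2 ratios correlated across genes at 0.436 with WT replicate 2, while KO replicate 2 and WT replicate 2 correlated at 0.954, and it had both the lowest macrophage median (2.02) and the highest fibroblast median (0.26, against -0.89 to -0.44 on the other macrophage arrays). For Dll1 itself, the probe with 10 spots read 3.94 in Dll1-high and 3.26 in Dll1-low cells. Its other probe, with 1 spot, read 0.38 in Dll1-high and 0.25 in Dll1-low cells. On the macrophage arrays the probe with 10 spots read 0.80 and 2.25 in KO and 0.78 and 3.24 in WT, so the genotypes overlapped. The other probe read -0.01 and 0.04 in KO and -0.03 and 0.02 in WT. Whether either probe lies inside the deleted part is not given, and a probe checks the KO label only if it does.

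Plin4, the perilipin that coats droplets when an adipocyte begins to store fat, had the largest positive difference of any gene between the sorted fractions as processed here. Its log2 ratio was 1.15 in Dll1-high and -0.61 in Dll1-low cells, a difference of 1.76 (3.38-fold), first of the 32146 genes whose Cy5 signal cleared background on 1 or both of these arrays. The median spot signal, before any normalization, was 2283 in Dll1-high and 780.5 in Dll1-low cells, over local backgrounds of 72 and 77.5. No replicate was made of either fraction, so the only error at hand is between spots: over 399 probes spotted 10 times, the SD of the same difference was 0.12 at the median probe and 0.2505 at the 95th percentile.

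The other droplet coats did not share this difference. Plin2, the perilipin found on droplets of nearly all cell types, read -0.16 in Dll1-high and -0.57 in Dll1-low cells, a difference of 0.41 (1.33-fold), with 2.31% of genes higher. Plin1, the coat of the mature adipocyte droplet and a gate for its lipases, read -0.01 in Dll1-high and 0.11 in Dll1-low cells, a difference of -0.12 that is the size of the spot SD. Its signal was dim, 233.5 in Dll1-high and 246 in Dll1-low cells over backgrounds of 72.5 and 74.

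Pdk4, a kinase that shuts the pyruvate dehydrogenase complex and so turns cells from glucose to fatty acids as fuel, read 4.85 in Dll1-high and 3.41 in Dll1-low cells. The difference was 1.45 (2.73-fold), rank 5 of all genes, at bright signals of 12168 and 4389. Adh1, a class I alcohol dehydrogenase that oxidises ethanol and retinol, read 2.16 in Dll1-high and 0.49 in Dll1-low cells, a difference of 1.67 (3.18-fold) and rank 2. Its signals were 1561 in Dll1-high and 500 in Dll1-low cells. These 3 genes were 3 of the 30 genes of all 32146 (0.0933%) that were at least 2-fold higher in Dll1-high cells, a share from which nothing is read, since the same values chose them. Of the 10 genes 0 were at least 2-fold lower, beside 33 of all genes (0.103%).

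The genes of fat uptake were mostly lower in Dll1-high cells. Angptl4, a secreted inhibitor of lipoprotein lipase, read 3.92 in Dll1-high and 3.50 in Dll1-low cells, a difference of 0.42 (1.34-fold) with 2.15% of genes higher. Lpl, the lipase that frees fatty acids from circulating triglyceride, read -0.39 in Dll1-high and 0.09 in Dll1-low cells, a difference of -0.48 (0.718-fold). Its other probe gave -0.73 in Dll1-high and -0.42 in Dll1-low cells, a difference of -0.31, so both probes ran the same way. Fabp4, the fatty acid carrier of adipocytes, capillary endothelium and macrophages, read 6.14 in Dll1-high and 6.45 in Dll1-low cells, a difference of -0.31 (0.805-fold), at bright, unsaturated signals of 46084.3 and 50014.4.

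The adipocyte regulator and its hormone were not higher in Dll1-high cells. Pparg, the PPAR that drives fat cell formation, read 0.00 in Dll1-high and 0.09 in Dll1-low cells, a difference of -0.09; its probe was spotted 10 times, with SDs over the spots kept of 0.072 in Dll1-high and 0.082 in Dll1-low. Adipoq, the adipocyte hormone adiponectin, read 0.38 in Dll1-high and 0.75 in Dll1-low cells, a difference of -0.37 (0.775-fold), with 91.7% of genes higher. Its signals were 191 in Dll1-high and 263 in Dll1-low cells over backgrounds of 76 and 76.5, and the reference channel was not well above background on the Dll1-low array. Across the 10 genes the median difference was 0.16, beside -0.03 over all genes, 43.8% of which were above 0. That median includes the 3 genes chosen with these same values known, so nothing is read from it. Of the other genes, Plin2 and Angptl4 were higher in Dll1-high cells, and Plin1, Fabp4, Lpl, Adipoq and Pparg were lower.

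**Figure D1:**
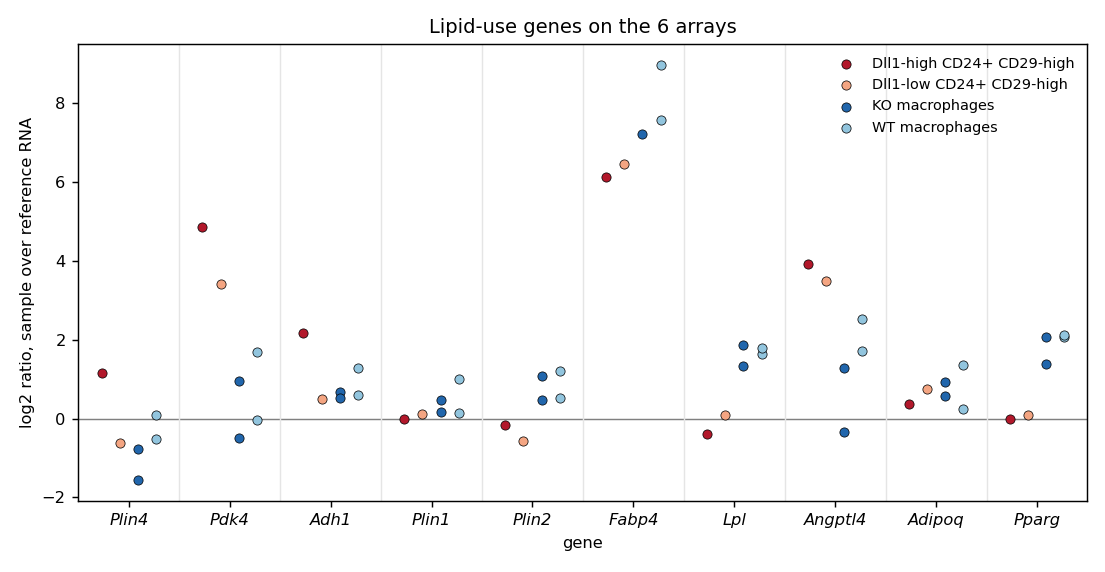
Log2 ratio of sample over reference RNA for the 10 lipid-use genes (horizontal groups) on each of the 6 arrays, 1 point an array: Dll1-high, Dll1-low, KO macrophages and WT macrophages. Plin4, Pdk4 and Adh1 stand 1.76, 1.45 and 1.67 higher in Dll1-high than in Dll1-low cells, while the points of Plin1 and Pparg nearly coincide.

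Beyond the 10 genes, the pathways they belong to showed no shift of like size. Of 40 known PPAR target genes, all measured, 23 were higher and 17 lower in Dll1-high cells, and 2 were at least 2-fold higher: Plin4 and Pdk4. Outside the 10 genes, 19 of 33 were higher, with a median of 0.08 beside -0.03 over all genes, and 0 of 33 reached 2-fold. The highest of them were Acsl1, which activates long-chain fatty acids (-0.29 in Dll1-high and -0.71 in Dll1-low cells, a difference of 0.43, though its other probe gave -0.05), and Ucp2, a mitochondrial carrier (0.94 and 0.58, a difference of 0.36). The lowest were Gk, glycerol kinase (-0.48), and Cyp4a10, a fatty acid hydroxylase (-0.53, with -0.11 and 0.11 from its other probes).

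Fatty acid oxidation, the use that Pdk4 favours, moved little: 16 of 23 genes were higher, with a median of 0.08 and a full range of -0.25 to 0.43. Etfdh, which passes electrons from fatty acid oxidation to the respiratory chain, stood at 0.29, and the lowest were Hadh (-0.22) and Cpt1b, the muscle carnitine palmitoyltransferase (-0.25). Of the 9 other genes of the pyruvate dehydrogenase complex and its regulators 4 were higher, with a median of -0.02. The kinase Pdk2 stood at 0.41 on its main probe and 0.02 on the other, Dlat, a core subunit, at 0.30, the kinase Pdk1 at -0.20 and Pdha1, the catalytic subunit that Pdk4 phosphorylates, at -0.38. Pdk4 was thus the single gene of its list past 2-fold.

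Among lipid droplet proteins outside the 10 genes, 11 of 14 were higher, with a median of 0.07. Cidea, a droplet fusion protein of brown fat, read 1.70 in Dll1-high and 0.72 in Dll1-low cells, a difference of 0.98 that fell just short of 2-fold. Mgll, the lipase of monoacylglycerols, differed by 0.65 on its main probe, but its other probes gave -0.07, 0.32 and 0.45. Hilpda, an inhibitor of the lipase Pnpla2, stood at -0.14, and Cidec, the white fat relative of Cidea, at -0.18, with 0.25 on its other probe.

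For retinol and alcohol dehydrogenases the direction of most genes ran against Adh1: 13 of 16 were lower in Dll1-high cells, and outside Adh1 the median was -0.26. Adh7, another alcohol dehydrogenase, was well above background in Dll1-high but not in Dll1-low cells, and Rdh10, a retinol dehydrogenase, stood at 0.37, whereas Rbp4, the retinol carrier of plasma, stood at -0.72 and Aldh2, the mitochondrial aldehyde dehydrogenase, at -0.76. Fatty acid uptake and transport was lower in 11 of 13 genes, with a median of -0.29. Outside the 10 genes the median was -0.25, with Fabp3, a fatty acid carrier of muscle, at -0.05, Cd36, a fatty acid translocase, at -0.34, and Slc27a4, a fatty acid transport protein, at -0.52. Fatty acid and triglyceride synthesis was split, with 11 of 20 higher and a median of 0.03, from Fasn, fatty acid synthase (0.35), and Me1 (0.24) to Mlxipl (-0.54) and Elovl6, a fatty acid elongase (-0.58).

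The receptors showed no common direction either. Of 14 PPAR receptors and partners other than Pparg, 7 were higher, with a median of 0.00. Ppard, the PPAR of most tissues, stood at 0.38 and the coactivator Ppargc1b at 0.29, while Rxrg stood at -0.26 and the Mediator subunit Med1 at -0.32, with 0.00 to 0.23 on its other probes. Pdk4 and Angptl4 are also induced by glucocorticoids, and of the 11 other genes so induced 6 were higher, with a median of 0.05. Errfi1, a brake on the EGF receptor, differed by 0.69 and the kinase Sgk1 by 0.53, against -0.23 for Dusp1 and -0.53 for Fkbp5, a standard glucocorticoid target.

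**Figure D2:**
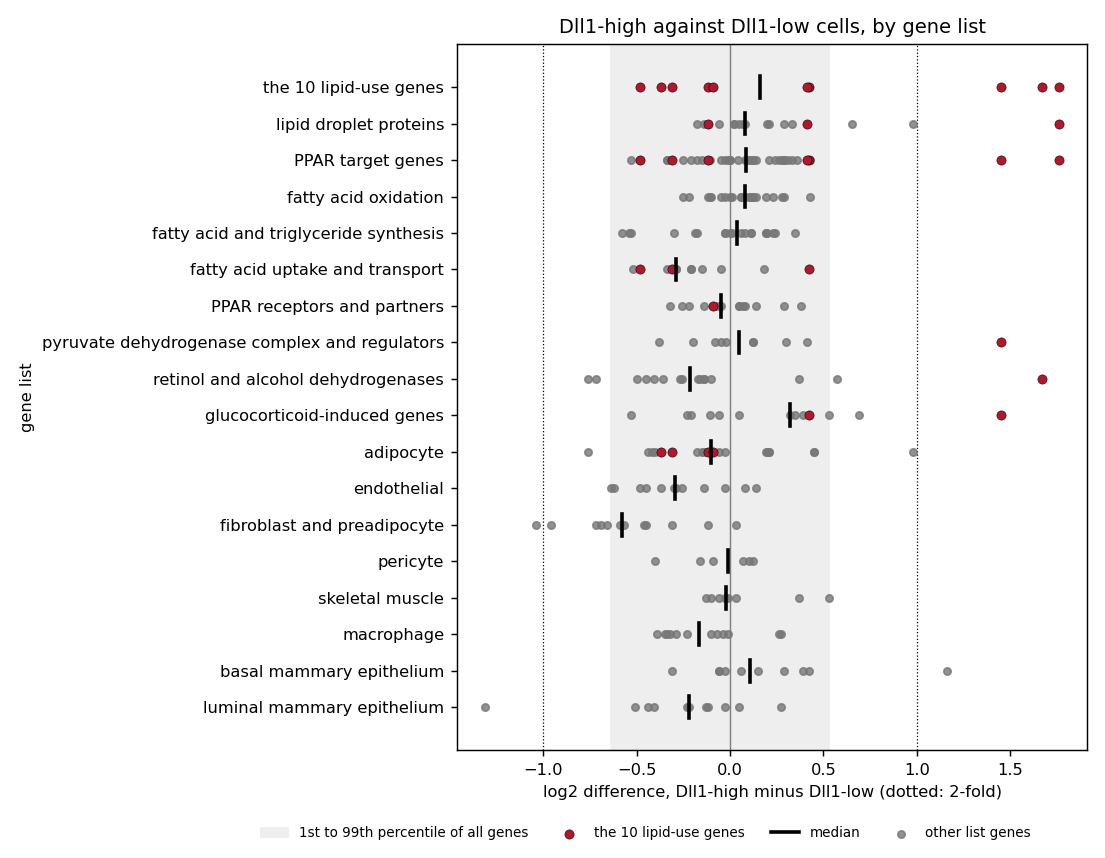
Difference in log2 ratio, Dll1-high minus Dll1-low, for every measured gene of each list (rows), with the 10 lipid-use genes in red, the list median as a black bar, and the 1st to 99th percentile of all genes (-0.64 to 0.53) as a grey band. Past the dotted 2-fold lines on the right lie Plin4, Pdk4, Adh1 and the smooth muscle gene Tagln, and no other gene of these lists.

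Whether RNA carried over from fat cells went along with the difference was read from 20 adipocyte markers, 4 of which are among the 10 genes. All 20 were well above background on both basal arrays, so no marker was at 0, but 7 of the 20 read under 5 times their local background on both. Of the 20, 7 were higher and 13 lower in Dll1-high cells, the median difference was -0.10, and 0 were at least 2-fold apart. Their median log2 ratio was 0.67 in Dll1-high and 0.68 in Dll1-low cells. Summed over the list, the Cy5 level after normalization was 33800 in Dll1-high and 37910 in Dll1-low cells. Without Fabp4, which gives most of the sum, it was 10350 and 10270.

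The markers of the fat cell were split in direction. Cfd, the secreted protease adipsin, read 3.32 in Dll1-high and 3.76 in Dll1-low cells, a difference of -0.44. Retn, the hormone resistin, read 2.90 and 3.32 (-0.42), Acvr1c, a fat cell activin receptor, 0.46 and 0.86 (-0.40, dim at signals of 140 and 146), and Adrb3, the adipocyte adrenergic receptor, 1.49 and 2.25 (-0.76, with -0.08 on its other probe). Adipoq (-0.37) and Fabp4 (-0.31) were also at this end of the list.

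Aqp7, the glycerol channel, at -0.15, Cebpa at -0.14, Car3 at -0.06 and Thrsp at -0.03 lay close to the median of all genes. On the other side stood Dgat2, which makes triglyceride (0.19), Lep, the hormone leptin (0.20), Pck1 (0.21), Lipe, hormone-sensitive lipase (0.21), the glucose transporter Slc2a4 (0.45), Nnat (0.45) and Cidea (0.98). Lep and Pck1 were dim, with signals of 228.8 and 182.5 in Dll1-high and 201.7 and 153 in Dll1-low cells. Lipe and Thrsp were dim too, with signals of 246 and 344 in Dll1-high and 243 and 383 in Dll1-low cells. The summed adipocyte marker level after normalization, Fabp4 left out, was 10350 in Dll1-high and 10270 in Dll1-low cells, but bright markers in it ran opposite ways. Their median spot signals are given before any normalization, so they are on another scale than the sum. These signals were higher in Dll1-high than in Dll1-low cells for Slc2a4 (5666.9 and 4315) and Dgat2 (3737 and 2962). They were lower for Retn (3269 and 4151), Cfd (1498 and 2402) and Adrb3 (1192 and 2001.5). How much fat cell RNA contributes to the level of Plin4, Pdk4 or Adh1 in either fraction was not tested.

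**Figure D3:**
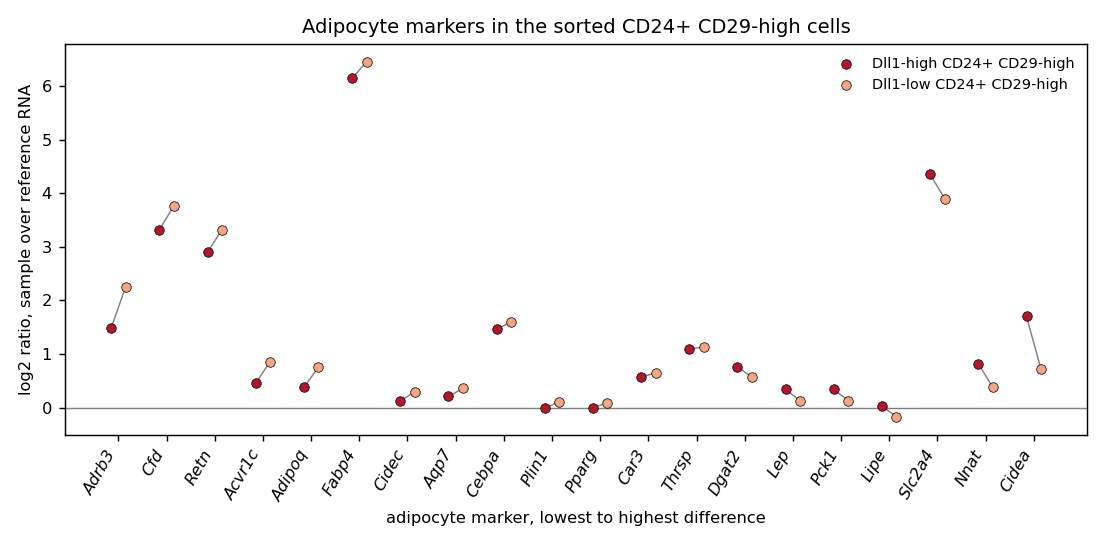
Log2 ratio of sample over reference RNA for the 20 adipocyte markers, 1 point each for Dll1-high and Dll1-low cells joined by a line, in order of their difference. The differences run from -0.76 (Adrb3) to 0.98 (Cidea), and 13 of the 20 markers are lower in Dll1-high cells, where 43.8% of all genes are higher.

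Of the other cells that a CD24+ CD29hi gate can hold, endothelial, fibroblast, macrophage and luminal markers were mostly lower in Dll1-high cells, pericyte and muscle markers were split, and basal ones were more often higher. Over all genes 43.8% were higher in Dll1-high cells. The median difference was -0.30 for 12 endothelial genes (10 lower, among them Flt1 at -0.62 and Tie1, which was not well above background in Dll1-high cells, with Vwf highest at 0.14; summed level 13230 in Dll1-high and 14960 in Dll1-low) and -0.58 for 12 fibroblast and preadipocyte genes (11 lower). Of the fibroblast genes Fn1, fibronectin, was more than 2-fold lower at -1.04, and Pi16 stood at -0.96. It was -0.16 for 12 macrophage genes (10 lower), -0.22 for 11 luminal genes (9 lower, with Elf5, a luminal progenitor factor, at -1.31), -0.01 for 6 pericyte genes (3 lower) and -0.02 for 8 measured muscle genes (5 lower). Acta1, the skeletal muscle actin, stood at 0.53, and the other measured muscle genes lay between -0.13 (Pvalb) and 0.37 (Myh1). The 9 muscle genes summed to 17050 in Dll1-high and 11740 in Dll1-low cells, with Acta1 the brightest of them by mean signal over the 6 arrays. For 10 basal genes the median difference was 0.11, 6 being higher, with Tagln, an actin-binding protein of contractile cells, at 1.16. These differences moved with the sort, and their part in the differences of the lipid-use genes was not tested; in such bulk RNA, fewer cells of a type and less RNA per cell cannot be told apart.

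The same 10 genes were read in KO and WT macrophages, a contrast that the rule for choosing them did not use, although its results were known. By limma, with Benjamini-Hochberg adjustment over 25039 genes, 0 of the 10 genes passed 0.05 (0% of all genes; smallest adjusted p 0.999), and 0 of 10 had an unadjusted p under 0.05, beside 32 of all genes (0.128%). All 10 differences, KO minus WT, were below 0, with a median of -0.36, in a comparison where 60% of all genes were below 0 and the median of all genes was -0.10. That shared sign depended on the scaling: 3 of the 10 were above 0 with the scanner software's processed signals, and 5 of 10 with each array centred on its median in place of loess, where the median of all genes was 0.47. A count of 0 at 2 arrays against 2 does not show that the genes were alike.

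Angptl4 had the largest of these differences. It read -0.34 and 1.28 in KO and 2.53 and 1.71 in WT macrophages, with both KO arrays below both WT arrays. The means were 0.47 ± 1.14 in KO and 2.12 ± 0.58 in WT (SD, n = 2 each). The difference was -1.65 with a standard error of 0.70 (limma, adjusted p = 0.999). Within replicate 1 it was -2.87 and within replicate 2 -0.43, so most of it came from 1 pair of arrays. With 1 array left out it ranged from -2.46 (without KO replicate 2) to -0.84 (without KO replicate 1), and it was -1.24 without WT replicate 1. Under median centring it was -0.44, where the median of all genes was 0.47.

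Plin4 read -1.56 and -0.77 in KO and 0.10 and -0.53 in WT macrophages, again with no overlap. The means were -1.16 ± 0.56 in KO and -0.22 ± 0.45 in WT (SD, n = 2 each). The difference was -0.94 with a standard error of 0.46 (limma, adjusted p = 0.999). It was -1.65 within replicate 1 and -0.23 within replicate 2, and with 1 array left out it ranged from -1.34 (without KO replicate 2) to -0.55 (without KO replicate 1), with -0.63 without WT replicate 1. These were 2 of the 10 genes with both KO arrays below both WT arrays, beside 13.4% of all genes. Under median centring Plin4 stood at 0.03.

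The other genes overlapped between genotypes where both could be read. Pdk4 read -0.49 and 0.95 in KO and -0.04 and 1.68 in WT macrophages, a difference of -0.59 with a standard error of 0.84 (limma, adjusted p = 0.999), and its sign turned without KO replicate 1 or without WT replicate 2. Adh1 read 0.67 and 0.53 in KO and 0.61 and 1.28 in WT macrophages, a difference of -0.35 with a standard error of 0.39 (limma, adjusted p = 0.999). So none of the 3 genes high in Dll1-high cells passed the test between macrophage genotypes.

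Plin2 read 0.48 and 1.09 in KO and 1.21 and 0.53 in WT macrophages (difference -0.08), and Plin1, dim and not well above background on KO replicate 1, 0.16 and 0.46 in KO and 0.15 and 1.00 in WT (-0.27). Lpl read 1.34 and 1.87 in KO and 1.64 and 1.79 in WT (-0.11), Adipoq 0.58 and 0.92 in KO and 0.24 and 1.35 in WT (-0.04), and Pparg 1.39 and 2.06 in KO and 2.06 and 2.12 in WT (-0.36). Plin2, Plin1, Lpl and Adipoq changed sign in at least 3 of the alternatives tried, Pparg in 1, and none of the 10 genes had an adjusted p under 0.259 in any of them.

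Fabp4 was read on 3 of the 4 macrophage arrays, because its spot on KO replicate 1 was marked as an outlier by the scanner software and left out. It read 7.22 in KO replicate 2, against 8.98 and 7.57 in WT, and the difference was -1.05 with a standard error of 0.81 (limma, adjusted p = 0.999). With outlier spots kept, KO replicate 1 read 6.70, and the difference was -1.31. The value rested on single arrays: it was -0.35 without WT replicate 1, -0.35 with replicate number as a block, and -1.75 without WT replicate 2.

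Markers of other cells, read the same way, gave these values. Over all genes, 60% were below 0 in KO minus WT and 13.4% had both KO arrays below both WT arrays. The 12 endothelial genes were all below 0, with a median of -0.77, and 6 of them had both KO arrays below both WT arrays. Their summed Cy5 level was 20880 and 37900 in KO and 42770 and 83910 in WT. The 12 macrophage genes were above 0 in 11 cases, with a median of 0.74 and summed levels of 160600 and 206900 in KO and 50630 and 149000 in WT, the low sum being that of WT replicate 1, the array that stood apart. Of 17 measured adipocyte genes 14 were below 0, with a median of -0.36, and the 16 markers outside the 10 genes that gave a value on every array summed to 6023 and 6913 in KO and 5845 and 8100 in WT. None of these markers passed the adjusted threshold, and their part in the lower Angptl4, Plin4 and Fabp4 readings was not tested. The macrophage list stayed above the median of all genes, and the endothelial and adipocyte lists below it, under each of the 5 other scalings. All 13 genes of fatty acid uptake and transport were below 0 (median -0.30), and of 38 measured PPAR target genes 27 were (median -0.25), with 0 passing in either list; under median centring 12 of 13 and 29 of 38 were above 0, with medians of 0.71 and 0.59 against 0.47 over all genes.

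**Figure D4:**
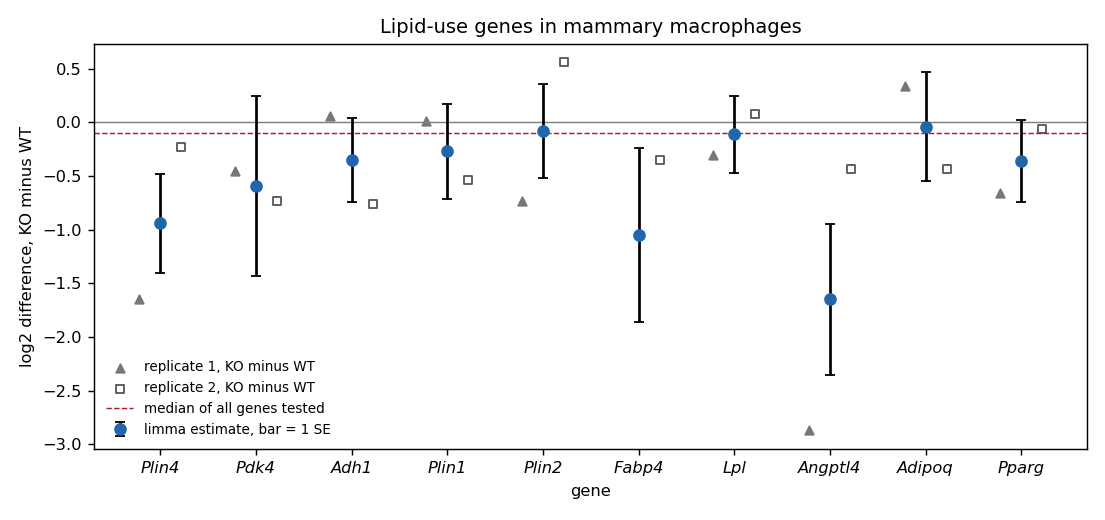
Log2 difference, KO minus WT macrophages, for the 10 lipid-use genes: the limma estimate with a bar of 1 standard error, the difference within replicate 1 (triangle) and within replicate 2 (square), and the median of all genes tested (dashed line, -0.10). Angptl4 (-1.65) lies lowest, with -2.87 in replicate 1 and -0.43 in replicate 2, and Fabp4 has no replicate 1 value because its spot was left out.

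Seen across all 6 arrays, the 10 genes did not follow 1 pattern. Pdk4 (4.85 in Dll1-high and 3.41 in Dll1-low, against -0.49 to 1.68 in macrophages) and Angptl4 (3.92 and 3.50, against -0.34 to 2.53) were higher in both basal fractions than on every macrophage array. Adh1 (2.16 in Dll1-high, against 0.53 to 1.28) and Plin4 (1.15, against -1.56 to 0.10) were above the macrophages in Dll1-high cells alone, with Dll1-low at 0.49 and -0.61 close to or within the macrophage range. Lpl, Pparg, Plin2 and, on the 3 arrays read, Fabp4 ran the other way: Pparg was 0.00 and 0.09 in the basal fractions, against 1.39 to 2.12 in macrophages, and Lpl -0.39 and 0.09, against 1.34 to 1.87. Adipoq overlapped between the cell types, and Plin1, at -0.01 and 0.11 in the basal fractions, lay just under the macrophage range of 0.15 to 1.00. Between the macrophage genotypes, both KO arrays lay below both WT arrays for Angptl4 and Plin4, and none of the 10 genes passed the adjusted threshold. Cell type cannot be told apart from slide.

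The genes most like the mean profile of Plin4, Pdk4 and Adh1 over the 6 arrays, by the root mean square (RMS) difference of centred log2 ratios among 17598 genes detected on all 6, were Sct (0.275), Ccrl1 (0.292), Grb14 (0.329), Mall (0.344) and Chst11 (0.369). Sct, the gut hormone secretin, read 3.07 in Dll1-high and 2.01 in Dll1-low cells, and Grb14, an adaptor that restrains insulin receptor signalling, 0.53 in Dll1-high and -0.65 in Dll1-low cells. The 5 lipid-use genes outside the 3 that could be ranked lay farther from that mean than the genes just named: Angptl4 at an RMS difference of 0.802 (rank 1874), Adipoq at 1.111 (rank 7825), Plin2 at 1.473 (rank 13852), Pparg at 1.764 (rank 15794) and Lpl at 1.781 (rank 15855). Plin4, Pdk4 and Adh1 were not ranked against their own mean, so the ranking does not show that they share a tight profile. In Dll1-low cells Pdk4 read 3.41, above every macrophage array, while Adh1 (0.49) and Plin4 (-0.61) did not stand above the macrophages. The profile rests on the same arrays that chose the 3 genes, so the order of likeness is a description.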

How the data were processed

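RNA was measured on 6 two-colour arrays. Per the file headers, scans were read with Agilent Feature Extraction 11.0.1.1 (CD24+ CD29hi cells) and 12.0.2.2 (macrophages), while the submitters' processing notes give 11.0. Per the file headers, spot and background signals are raw intensity values, processed signals are intensity values after the scanner software's background and dye steps, and the log ratio is a log10 of sample over reference. Values in the table the authors deposited are log2 ratios that follow the scanner ratio (slope 1 to 1.006, column medians -0.117 to 0.14), not centred per gene; dyes were not swapped, so dye bias stays in a level.

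From the median signals, normexp (offset 50) and loess within each array were run with limma 3.58.1 and the data.table package (1.17.8) in R 4.3.3. Spots marked as outliers (170 to 500 of 62976 per array) were left out, and spots were averaged to 55681 probes, 27509 named by accession and 28172 by the array design. A gene's value is that of its probe of highest mean signal, and the 2 arrays a group at most limit the precision. Summed Cy5 levels, and the Cy5 channel alone, were taken after these steps and a quantile scaling of mean signals between arrays (Aquantile). They are therefore not sums of the spot signals quoted in the text. Dll1-high and Dll1-low, 1 array each, were compared by difference, called at 2-fold, with no test. KO and WT macrophages were tested with limma over genes well above background on at least 2 of 4 arrays, at an adjusted p of 0.05 (prior degrees of freedom 2.16). The script was tested on simulated data. Alternatives covered background correction, normalization, probe choice, detection filter, replicate block, moderation and each macrophage array left out. From each list the text names the 2 highest and 2 lowest genes outside the 10 genes and any past 2-fold; all adipocyte markers are named, as are the 5 most alike genes. A gene that this rule names is not reported here. The genes, lists and tests were chosen with earlier results of these data known.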

Additional observations from a re-analysis of the deposited data

How the results depend on the processing

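Under all 9 alternatives tried for Dll1-high minus Dll1-low, 3 of the 10 genes stayed at least 2-fold higher and no gene of the 10 changed sign. Not all alternatives could move Plin4, Pdk4 or Adh1. Each has 1 probe of 1 spot, kept and well above background on both arrays. Probe choice, detection filters and outlier spots therefore left them unchanged. Processed signals and the authors' table gave them the same values. Every alternative used the same arrays that chose these genes. Plin4 ranged from 1.57 to 1.76, Pdk4 from 1.31 to 1.53 and Adh1 from 1.58 to 1.93. Adh1 stood above Plin4 with processed signals and in the authors' table (1.93 against 1.76). The same held with median centring (1.58 against 1.57) and Cy5 alone (1.71 against 1.66). The ranks given for Plin4, Pdk4 and Adh1 are those of the main processing. The count over all genes depended on the processing: against 30 higher and 33 lower, there were 333 and 671 with the scanner software's processed signals, 334 and 671 in the authors' value table, 51 lower with the Cy5 channel alone and 21 lower with the mean of all probes; the cause was not tested. For KO minus WT, 0 genes passed under every alternative, while genes with an unadjusted p under 0.05 went between 9 and 4589 as 1 array was left out. Signs turned above 0, with causes not tested, for Plin1 (0.03), Plin2 (0.17) and Lpl (0.07) with processed signals or the authors' table, for Adipoq (0.05) without background correction, for Lpl (0.20) and Adipoq (0.37) with Cy5 alone and for Lpl (0.13) with the mean of all probes. Centring on the median, under which the median of all genes was 0.47, gave Plin4 0.03, Plin2 1.08, Fabp4 0.06, Lpl 0.95 and Pparg 0.59; relative to that median Plin4, Fabp4 and the median of the 10 genes (-0.01) were lower in KO. With 1 macrophage array left out, so that a lone array is assumed to vary like the other genotype's, the ranges were -1.45 to 0.27 for Pdk4, -0.69 to 0.16 for Plin1, -0.43 to 0.26 for Plin2, -0.37 to 0.15 for Lpl, -0.60 to 0.51 for Adipoq, -1.75 to -0.35 for Fabp4, -2.46 to -0.84 for Angptl4, -1.34 to -0.55 for Plin4 and -0.61 to -0.07 for the median of the 10 genes. The replicate numbers of the macrophages also mark the slide row, and replicate 1 deviations of KO and WT correlated at 0.595 across 24763 genes; with only 2 pairs this does not settle a pairing. With replicate number as a block, 0 genes passed, 154 had an unadjusted p under 0.05 against 32, and the median of the 10 genes was -0.35. Depth of signal limits Plin1, Adipoq, Lep, Pck1, Lipe, Thrsp and Acvr1c, and 1 array a fraction leaves the Dll1-high differences without a replicate check.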
